A study of Mus musculus with 12 samples.

Results

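Glycolysis and hypoxia-response genes were measured by RNA-seq in GT1-7 cells, a neuronal line of the mouse hypothalamus known for its gonadotropin-releasing hormone (GnRH). The set was a list of 36 gene symbols that covers the glycolytic enzymes, glucose and lactate transport, the oxygen sensors and targets of the hypoxia-inducible factor (HIF). A member was any listed symbol that occurred in the gene name column of the 3 deposited tables. By this rule 32 of the 36 symbols were found, with 33 gene IDs of the 12786 that occurred in at least 1 table. Aldoa had 2 IDs, which are reported apart. Ldhb, Slc16a3, Adm and Ero1a were not matched by symbol and are not analysed here, although the tables list Ero1l, an older symbol of Ero1a in RefSeq, whose values are given beside the HIF targets.

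The 12 samples formed 3 groups of 4. Cells of the Klf4 siRNA group were transfected with an siRNA whose target is Klf4, a transcription factor with zinc fingers, and cells of the Scramble group with a non-targeting siRNA, both with a lipofectamine reagent in Opti-MEM I over 24 h. Vehicle cells are not described as transfected: they went without serum for 6 h and then spent 1 h in DMEM free of Ca2+. All groups came from the same line, grown in DMEM with fetal bovine serum. Transfection, medium, serum and Ca2+ therefore differed together between Vehicle and either siRNA group and cannot be told apart in those comparisons. The labels describe no change of oxygen. They also do not say whether replicates are separate cultures, so the p-values measure the spread between these samples, which may be technical. In bulk RNA a change in the make-up of the cells and a change in RNA per cell cannot be told apart.

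Glycolysis splits glucose into pyruvate and yields ATP without oxygen. Glucose enters through transporters of the Slc2a family, hexokinase and phosphofructokinase commit it to the pathway, and lactate dehydrogenase turns pyruvate into lactate, which leaves through Slc16a transporters. When oxygen is short, the prolyl hydroxylases encoded by the Egln genes no longer mark the HIF-1 alpha protein (Hif1a) for breakdown, and the factor then activates many of these genes through the hypoxia response element. Hif1a is controlled largely as a protein, so its mRNA is not a measure of HIF activity. Neurons draw much of their energy from oxidative metabolism, and dividing neuronal lines are known to use glycolysis as well.

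The core of the hypoxia response element, RCGTG, was searched as ACGTG or GCGTG on both strands of the promoter windows given by RefSeq for GRCm38.p6, the assembly of mm10. A window has a length of 300 bases and spans the start of the gene, with the last 50 bases downstream of it. Windows were matched by symbol for 29 of the 32 members. No entry was matched for Slc2a3, Bnip3l and Ndrg1. At least 1 match lay in 26 of the 29 genes (89.7%) and in 34 of their 43 windows (79.1%). By gene, the share was 67.5% among genes in the deposited tables and 46.7% among all genes with a window. By window, it was 61.4% among windows of the genes in the deposited tables and 43.8% among all 32851 windows. With ACGTG alone the shares were 58.1% of member windows, 24.8% of windows of genes in the tables and 19.6% of all. A palindromic CACGTG holds ACGTG on both strands and so counts as 2 matches. It occurred in 6 of the member windows (13.95%) and in 9.65% of windows of genes in the tables. These shares are a description of letters, and many of these genes are in the list because they are known HIF targets. Gpi1, Tpi1 and Eno2 held no match, which says only that these letters are not in those windows.

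The windows of 5 members are printed 5' to 3' because these genes recur in the results: the glucose transporter Slc2a1, lactate dehydrogenase Ldha, the mitophagy receptor Bnip3, aldolase C (Aldoc), and Eno2 as a window without a match. Capitals mark ACGTG and GCGTG, or their complements CACGT and CACGC where the match lies on the other strand. Slc2a1 lies at chr4:119108495-119108794, plus strand, Ldha at chr7:46845554-46845853, plus strand, Bnip3 at chr7:138909457-138909756, minus strand, Aldoc at chr11:78322823-78323122, plus strand, and Eno2 at chr6:124769624-124769923, minus strand.
Slc2a1: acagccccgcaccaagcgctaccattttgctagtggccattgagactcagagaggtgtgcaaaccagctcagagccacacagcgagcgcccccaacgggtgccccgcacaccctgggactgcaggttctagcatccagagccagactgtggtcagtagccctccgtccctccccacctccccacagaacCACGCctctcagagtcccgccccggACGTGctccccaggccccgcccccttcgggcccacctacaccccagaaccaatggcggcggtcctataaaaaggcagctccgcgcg
Ldha: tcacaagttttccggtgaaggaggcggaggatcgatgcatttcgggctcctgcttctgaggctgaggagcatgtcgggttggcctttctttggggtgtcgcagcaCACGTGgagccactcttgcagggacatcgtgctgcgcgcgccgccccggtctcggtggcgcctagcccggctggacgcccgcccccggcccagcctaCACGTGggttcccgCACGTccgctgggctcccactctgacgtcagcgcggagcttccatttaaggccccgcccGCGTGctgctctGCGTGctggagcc
Bnip3: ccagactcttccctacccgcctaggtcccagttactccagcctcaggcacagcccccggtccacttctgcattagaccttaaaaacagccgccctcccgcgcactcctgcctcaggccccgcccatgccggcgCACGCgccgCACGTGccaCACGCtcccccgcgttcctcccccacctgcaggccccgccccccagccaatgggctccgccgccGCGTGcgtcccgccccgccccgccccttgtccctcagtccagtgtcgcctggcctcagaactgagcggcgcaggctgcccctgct
Aldoc: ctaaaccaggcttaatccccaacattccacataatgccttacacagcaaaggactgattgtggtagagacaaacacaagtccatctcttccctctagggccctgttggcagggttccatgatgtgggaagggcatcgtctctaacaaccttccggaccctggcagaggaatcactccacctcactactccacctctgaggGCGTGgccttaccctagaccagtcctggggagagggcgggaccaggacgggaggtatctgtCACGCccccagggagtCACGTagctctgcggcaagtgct
Eno2: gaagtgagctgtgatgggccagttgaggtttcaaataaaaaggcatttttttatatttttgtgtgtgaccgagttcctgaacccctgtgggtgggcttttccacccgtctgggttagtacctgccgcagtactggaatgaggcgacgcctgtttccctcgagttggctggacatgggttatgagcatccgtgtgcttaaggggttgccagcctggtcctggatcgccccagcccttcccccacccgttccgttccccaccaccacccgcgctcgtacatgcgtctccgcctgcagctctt
Ldha and Aldoc have 2 windows each, for different start sites, and the first is printed; the second held 2 matches in Ldha and 1 in Aldoc. The printed window of Ldha held 7 matches, 4 of them in 2 palindromes, the most of any member window. Bnip3 held 5 matches, Aldoc 3 and Slc2a1 2.

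Total counts over all genes of the deposited tables, not the members alone, ranged from 25992363 to 39674984 per sample. Levels are given as TMM-scaled CPM, which relates counts to library size. Egln3, near 2 CPM, rested on 46 to 97 counts per sample. Klf4 itself stood at 1.38 ± 0.359 CPM with the Klf4 siRNA, 4.01 ± 0.609 with Scramble and 4.78 ± 0.555 with Vehicle (SD, n = 4), and its highest Klf4 siRNA sample was below the lowest of the rest. Gnrh1, which defines the line, was abundant in every sample but differed between groups, at 745 ± 66.1 CPM with the Klf4 siRNA, 1688 ± 139 with Scramble and 676 ± 63.6 with Vehicle (SD, n = 4). Of 10 markers of the line, 8 were measured, and their sum ran from 1222 to 1388, 2167 to 2535 and 1208 to 1399.7 CPM in the same order. Between Klf4 siRNA and Scramble, 6 of the 8 fell (Gnrh1, Dlx5, Six6, Chgb, Dlx1 and Gad1), Tubb3 was not called and Eno2, a member described below, rose. Of the markers of other cells, 5 of 7 for fibroblasts and pericytes were measured, and their summed level ran from 95.1 to 109 CPM in Klf4 siRNA, 120.1 to 128 in Scramble and 168 to 178 in Vehicle. For endothelium, 2 of 5 markers were measured, with sums of 15.5 to 20.7, 33.6 to 41.8 and 47.9 to 54.6 CPM in the same order. These 2 went opposite ways with the Klf4 siRNA against Scramble: Kdr was called down (log2 fold change -1.12) and Tek up (2.42). For oligodendrocytes 2 of 6 were measured (4.61 to 5.04, 4.92 to 6.44 and 6.57 to 7.88 CPM), and for microglia 2 of 7 (35.1 to 39.4, 33.5 to 37.4 and 41.0 to 49.0 CPM). The 2 microglia markers also split in that comparison, with Csf1r called up (log2 fold change 0.19) and Tmem119 down (-0.55). The part of these differences, and of those in the markers of the line, in the results was not tested. The gene model Gm10800 set Klf4 siRNA samples 1 and 4 apart, with 25825 and 10572 counts against 687 and 259 in samples 2 and 3 and at most 238 elsewhere. Lars2 was called up with the Klf4 siRNA against Scramble (4326 ± 563 and 2885 ± 315 CPM, SD, n = 4; log2 fold change 0.59, adjusted p = 0.00021) and stood at 3442 ± 198 CPM in Vehicle.

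Levels of the members spanned about 3 orders of magnitude. Per length of exon, Ldha (396 ± 4.54 CPM per kb in Vehicle), Pkm (395 ± 20.4), Gapdh (338 ± 10.0) and the main ID of Aldoa (255 ± 7.66, SD, n = 4) stood highest in the Vehicle samples. The first 2 of these did not differ beyond their spread, while Gapdh lay below both and Aldoa below Gapdh. By CPM, which is not per length, the order in Vehicle was another. Pkm stood at 1978 ± 102 CPM, Gapdh at 1395 ± 41.4 and Ldha at 1311 ± 15.0 (SD, n = 4). Eno1 (909 ± 32.5) then lay above the main ID of Aldoa (743 ± 22.3, SD, n = 4). The order per length thus rests on the lengths used. At the other end, again per length, were Hk2 (0.513 ± 0.121 CPM per kb), Aldoc (0.517 ± 0.153) and Pfkfb3 (0.313 ± 0.0679, SD, n = 4), and Hk2 and Aldoc did not differ beyond their spread. In the siRNA groups Pkm led, at 419 ± 26.9 CPM per kb with the Klf4 siRNA and 381 ± 8.60 in Scramble, and Ldha stood at 313 ± 19.7 and 281 ± 13.4 (SD, n = 4). The 16 glycolytic enzyme IDs (the hexokinases to pyruvate kinase) together took 0.742% ± 0.0365 of scaled counts with the Klf4 siRNA, 0.638% ± 0.00923 with Scramble and 0.653% ± 0.0244 with Vehicle (SD, n = 4). The lowest Klf4 siRNA sample (0.694%) lay above the highest of Scramble (0.646%) and of Vehicle (0.678%). The group means of Lars2 given above had the same order, and its part in this sum was not tested. Members varied little within a group, with a median coefficient of variation of 6.30% with the Klf4 siRNA, 4.76% with Scramble and 7.57% with Vehicle. It was above 20% in at least 1 group for Pfkfb3, Ndrg1, Aldoc, Hk2 and Slc2a3, which all stood at low levels.

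**Figure D1:**
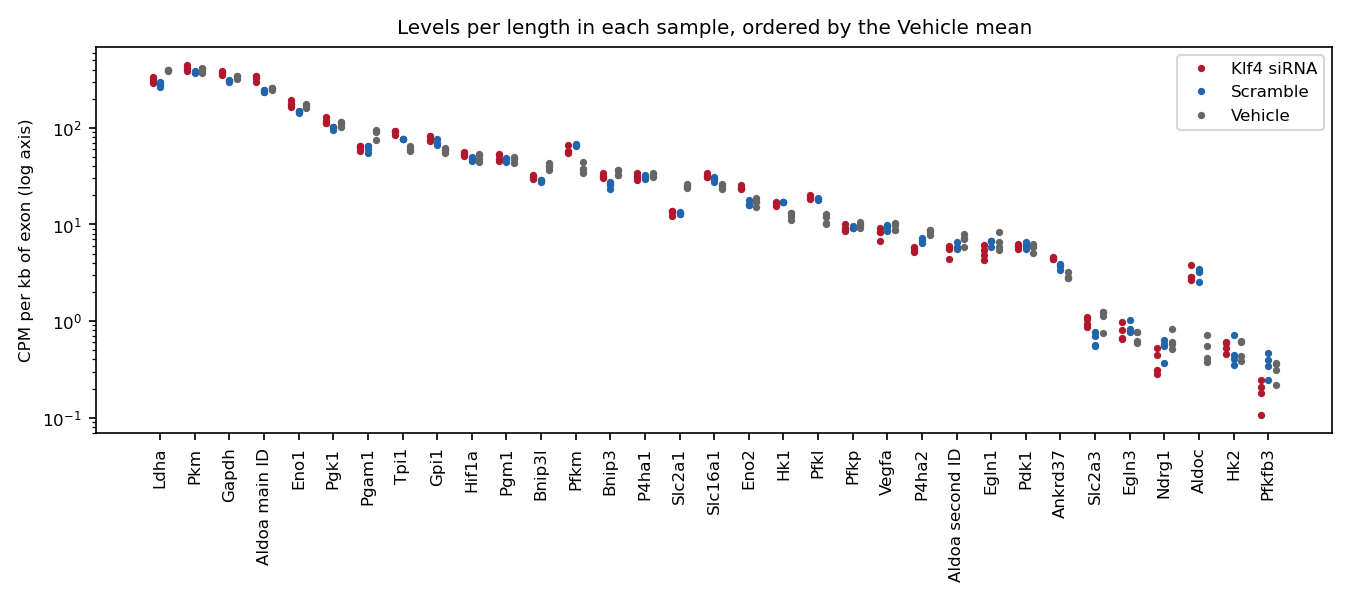
Level of each gene ID in CPM per kb of exon (log axis), with 1 point per sample, coloured by group and ordered by the Vehicle mean. On this scale per length, Ldha, Pkm, Gapdh and the main ID of Aldoa stood at the top. In Aldoc the Vehicle points lie apart below those of both siRNA groups.

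All 33 IDs passed the filter on low counts in each comparison. Calls were made at an adjusted p under 0.05 (edgeR's quasi-likelihood test, Benjamini-Hochberg over all genes tested), and every adjusted p below is of this kind. Between Klf4 siRNA and Scramble, 14 members rose, 4 fell and 15 were not called. Among all 12663 genes tested there, 18.5% were called up and 17.5% down. Without Klf4 siRNA sample 2 the counts of members were 9 up and 2 down, without Scramble 2 or Scramble 3 the falls were 2, and with all 12 samples in 1 fit they were also 2. The shares of all genes called in those fits are not given, so these lower counts have no background beside them. Between Scramble and Vehicle 8 members rose, 10 fell and 15 were not called, beside 27.3% of genes up and 26.6% down in the background. For Klf4 siRNA against Vehicle the counts were 11 up, 8 down and 14 not called, with a background of 24.1% up and 21.3% down. Of the members, 42.4% were thus called up with the Klf4 siRNA against Scramble, and 12.1% were called down. Against Vehicle, the shares up and down lay closer to the background for Scramble (24.2% and 30.3%) and for Klf4 siRNA (33.3% and 24.2%). The median log2 fold change of the members was 0.12, -0.06 and 0.08 in the 3 comparisons, against 0.00, 0.01 and 0.02 over all genes tested. The median size of the change was 0.18, 0.25 and 0.36 on the log2 scale for members and 0.15, 0.22 and 0.20 for all genes. Changes were small: only Aldoc, against Vehicle, reached a log2 fold change of 1 in either direction, and Pfkfb3 came just short of it with the Klf4 siRNA against Scramble. Each pair of comparisons shares a group, so values that come from a shared group are not independent of each other.

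**Figure D2:**
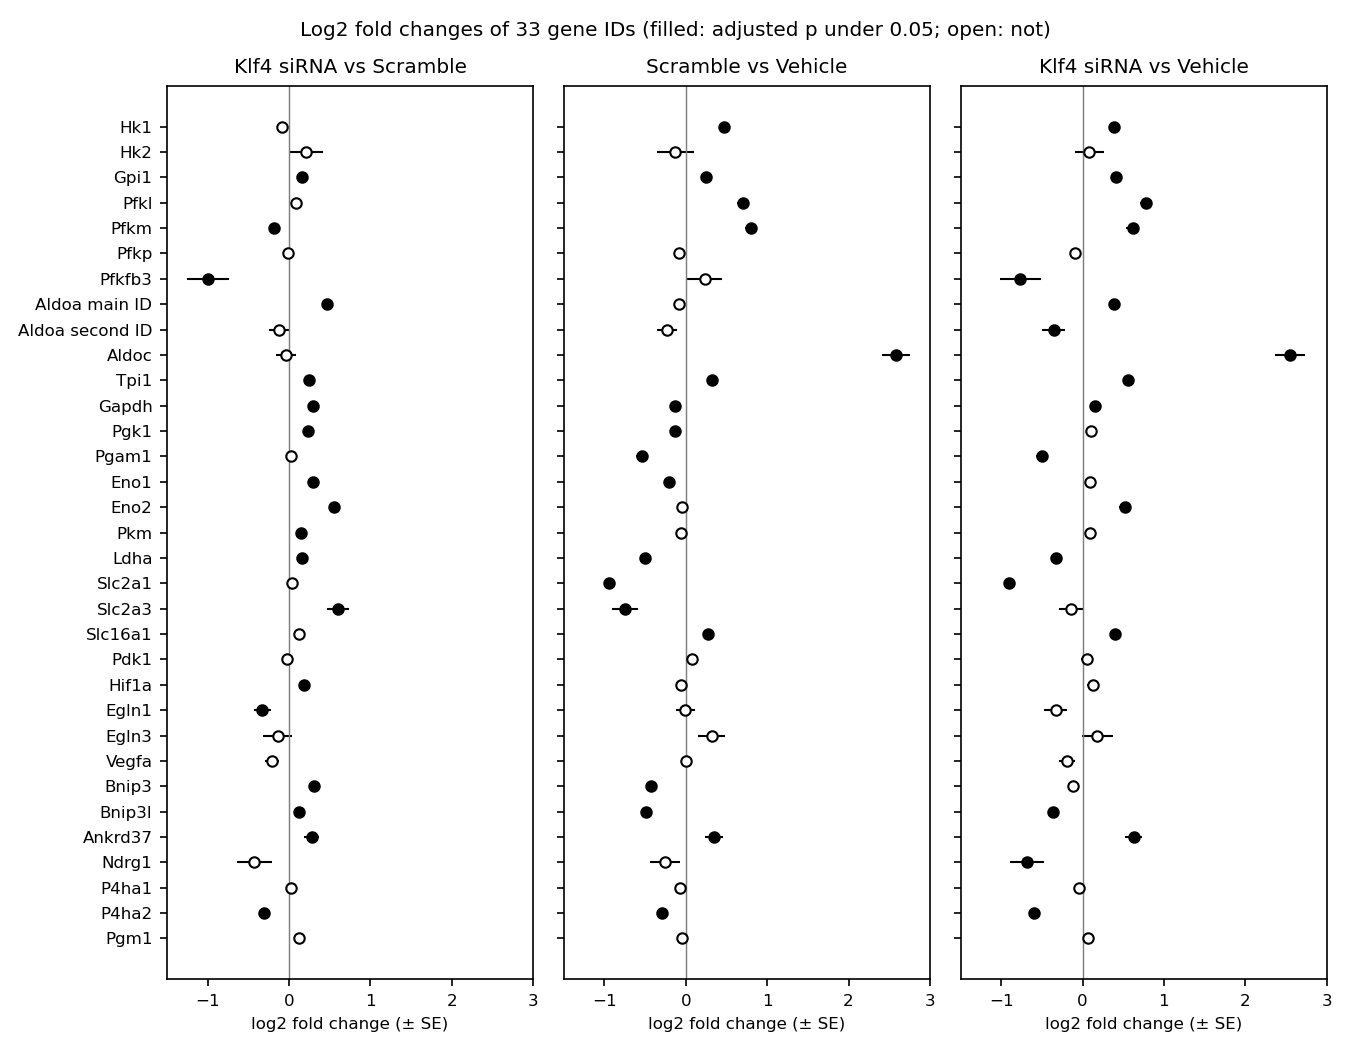
Log2 fold change (horizontal axis, with its standard error) of each of the 33 gene IDs in the 3 comparisons, first group over second. Filled points passed an adjusted p of 0.05 and open points did not, and Aldoc lies near 2.6 in both comparisons with Vehicle while most other points lie within 1 of 0.

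Glucose transporters were represented by the mRNAs of Slc2a1 (GLUT1, the widely used transporter) and Slc2a3 (GLUT3, the high-affinity transporter of neurons). Slc2a1 (mm10 chromosome 4, 119108711 to 119137983, plus strand) stood at 48.1, 48.2, 42.7 and 46.9 CPM in Klf4 siRNA samples 1 to 4, at 45.7, 47.1, 44.7 and 45.1 in Scramble and at 83.9, 91.9, 88.3 and 87.4 in Vehicle. The 2 siRNA groups overlapped, and all Vehicle samples were far above them. Slc2a1 was lower than Vehicle by a log2 fold change of -0.94 in Scramble (SE 0.05, adjusted p = 4.1e-09) and -0.91 in Klf4 siRNA (SE 0.06, adjusted p = 8.4e-08). Between the siRNA groups it differed by 0.03 (SE 0.05, adjusted p = 0.69). Slc2a3 (chromosome 6, 122727809 to 122801640, minus strand) was much scarcer, with 7.61, 6.71, 6.25 and 7.98 CPM in Klf4 siRNA, 5.53, 5.12, 4.12 and 3.99 in Scramble and 5.50, 8.23, 8.95 and 8.98 in Vehicle. Scramble was the low group here, and only Vehicle sample 1 reached into its range. Slc2a3 rose with the Klf4 siRNA against Scramble (log2 fold change 0.60, SE 0.13, adjusted p = 0.0034) and was lower in Scramble than in Vehicle (-0.75, SE 0.16, adjusted p = 0.0016). Klf4 siRNA and Vehicle overlapped (-0.14, SE 0.15, adjusted p = 0.47). Per length, Slc2a3 made up 6.91% ± 0.573 of the summed RPKM of the pair with the Klf4 siRNA, 4.73% ± 0.664 with Scramble and 4.16% ± 0.769 with Vehicle (SD, n = 4).

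The hexokinases phosphorylate glucose on entry. Hk1, the hexokinase that predominates in brain (chromosome 10, 62268855 to 62379908, minus strand), stood at 145, 137, 132 and 137 CPM in Klf4 siRNA, 147, 146, 144 and 147 in Scramble and 111, 112, 94.1 and 104 in Vehicle. Both siRNA groups lay above Vehicle, with log2 fold changes of 0.47 for Scramble (SE 0.06, adjusted p = 1.0e-05) and 0.39 for Klf4 siRNA (SE 0.06, adjusted p = 0.00023). Hk2, the inducible hexokinase, was near 3 CPM in each group, with 68 to 128 counts per sample, and passed in no comparison. The difference between Hk1 and Hk2 was not tested. Gpi1, which turns glucose 6-phosphate into fructose 6-phosphate, rose in each comparison, from 383 ± 19.3 CPM in Vehicle to 454 ± 27.7 in Scramble and 507 ± 28.4 in Klf4 siRNA (SD, n = 4). Its call between the siRNA groups (log2 fold change 0.16, adjusted p = 0.025) was lost when any of 4 samples was left out. These were Klf4 siRNA 2 and Scramble 2, 3 and 4 (log2 fold change 0.14 to 0.16, adjusted p 0.051 to 0.072). Pgm1, which links glucose 1-phosphate to the pathway, passed in no comparison. Without Klf4 siRNA 4 it was called up in Klf4 siRNA against Scramble (log2 fold change 0.16, adjusted p = 0.041).

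Phosphofructokinase, which commits sugar to glycolysis, is built from the products of Pfkm, Pfkl and Pfkp. Pfkm (chromosome 15, 98092589 to 98132451, plus strand) stood at 221, 184, 187 and 190.5 CPM in Klf4 siRNA, 222, 223, 229 and 215 in Scramble and 125, 149, 114 and 125 in Vehicle. Every siRNA sample was above every Vehicle sample, and only Klf4 siRNA sample 1 reached the range of Scramble. Its log2 fold change was 0.80 for Scramble against Vehicle (SE 0.07, adjusted p = 4.4e-07) and 0.62 for Klf4 siRNA against Vehicle (SE 0.08, adjusted p = 4.8e-05). With the Klf4 siRNA it was lower than in Scramble by a log2 fold change of -0.18 (SE 0.06, adjusted p = 0.022). That call was lost without Klf4 siRNA 2, Klf4 siRNA 3, Scramble 2 or Scramble 3 (log2 fold change -0.18 to -0.15, adjusted p 0.057 to 0.067). The call was also lost with all 12 samples in 1 fit (adjusted p 0.053). Pfkl (chromosome 10, 77986947 to 78010083, minus strand) stood at 136, 130.5, 127 and 122 CPM in Klf4 siRNA, 126, 119, 122 and 123 in Scramble and 79.9, 85.2, 69.6 and 67.2 in Vehicle. It followed the same split of the groups, with log2 fold changes of 0.70 (Scramble, SE 0.07, adjusted p = 1.9e-06) and 0.78 (Klf4 siRNA, SE 0.07, adjusted p = 3.1e-06) against Vehicle and no call between the siRNA groups. Pfkp, the platelet form, passed in no comparison, at 123 ± 9.77, 125 ± 2.95 and 132 ± 8.38 CPM (Klf4 siRNA, Scramble, Vehicle; SD, n = 4). Without Klf4 siRNA 1 it was called down in Klf4 siRNA against Vehicle (log2 fold change -0.17, adjusted p = 0.039).

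Per length, Pfkm was the largest of the family in each sample. Its share of the summed RPKM was 67.2% ± 1.25 with the Klf4 siRNA, 70.6% ± 0.733 with Scramble and 64.4% ± 1.08 with Vehicle (SD, n = 4). Pfkp held 10.6% ± 0.380, 9.89% ± 0.223 and 16.6% ± 0.818 in the same order, and its Vehicle samples (15.6% to 17.5%) did not overlap those of the siRNA groups. By CPM, which is not per length, Pfkp took 27.5%, 26.6% and 39.4%, with the same order of the groups. Pfkm then took 43.7%, 47.3% and 38.1%. In Vehicle these CPM shares of Pfkp (SD 1.52) and Pfkm (SD 1.05) did not differ beyond their spread. The rank of Pfkm there thus rests on the lengths, which are 3340 bases for Pfkm and 13401 for Pfkp.

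Pfkfb3 makes and breaks fructose 2,6-bisphosphate, the activator of phosphofructokinase, and is a known HIF target. It was the scarcest member per length, with 27 to 144 counts per sample. Pfkfb3 (chromosome 2, 11471433 to 11554077, minus strand) stood at 1.34, 1.86, 0.796 and 1.56 CPM in Klf4 siRNA, 3.55, 2.58, 1.83 and 3.0 in Scramble and 1.64, 2.35, 2.77 and 2.69 in Vehicle. Klf4 siRNA was the low group, although its sample 2 lay just above Scramble sample 3 and above Vehicle sample 1. The log2 fold change was -0.998 against Scramble (SE 0.26, adjusted p = 0.0085) and -0.76 against Vehicle (SE 0.25, adjusted p = 0.025). Against Vehicle the call was lost without Klf4 siRNA 3, Vehicle 3 or Vehicle 4 (log2 fold change -0.69 to -0.57, adjusted p 0.066 to 0.072). The call was also lost without Klf4 siRNA samples 1 and 4 together (adjusted p 0.073).

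Aldolase splits fructose 1,6-bisphosphate, and its A and C forms behaved apart. The main ID of Aldoa (ENSMUSG00000030695.16, chromosome 7, 126795234 to 126800751, minus strand) stood at 1008, 1013, 959.8 and 876 CPM in Klf4 siRNA, 713, 681, 692 and 711 in Scramble and 747, 753, 711 and 761 in Vehicle. All Klf4 siRNA samples were above all others, and Scramble and Vehicle overlapped. It rose with the Klf4 siRNA by a log2 fold change of 0.47 against Scramble (SE 0.05, adjusted p = 6.3e-06) and 0.38 against Vehicle (SE 0.05, adjusted p = 4.0e-05). The second ID (ENSMUSG00000114515.2), which lies next to it on the same strand (126800790 to 126809108), held 4.34 ± 0.565, 4.75 ± 0.336 and 5.60 ± 0.680 CPM (SD, n = 4) and was called only for Klf4 siRNA against Vehicle, downward (log2 fold change -0.36, SE 0.14, adjusted p = 0.049). That call was lost without any of 6 of the 8 samples, all but Klf4 siRNA 1 and Vehicle 4 (log2 fold change -0.39 to -0.27, adjusted p 0.060 to 0.14). The call was also lost without Klf4 siRNA samples 1 and 4 together (adjusted p 0.065) and with total counts as the scale (0.085). Without Vehicle 4 this ID was called down in Scramble against Vehicle (log2 fold change -0.31, adjusted p = 0.047).

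Aldoc, the form of brain and a marker of astrocytes there, showed the largest change of the set. Aldoc (chromosome 11, 78322968 to 78327781, plus strand) stood at 12.4, 9.40, 9.25 and 8.69 CPM in Klf4 siRNA, 8.37, 10.7, 10.6 and 11.4 in Scramble and 1.24, 1.79, 1.37 and 2.35 in Vehicle. The lowest siRNA sample thus lay far above the highest Vehicle sample, and the 2 siRNA groups overlapped. The difference from Vehicle was 6.00-fold in Scramble (log2 fold change 2.59, SE 0.18, adjusted p = 6.4e-08) and 5.86-fold in Klf4 siRNA (log2 fold change 2.55, SE 0.19, adjusted p = 3.2e-07). Between the siRNA groups it was -0.04 (SE 0.13, adjusted p = 0.85). In counts, Vehicle held 37 to 81 per sample. Aldoc stayed a small part of aldolase, at 0.895% ± 0.119, 1.26% ± 0.169 and 0.196% ± 0.0546 of the summed RPKM (Klf4 siRNA, Scramble, Vehicle; SD, n = 4). Of the 6 astrocyte markers only Aldoc itself and Aldh1l1 were measured, while Gfap, Aqp4, Slc1a3 and S100b were not among the genes tested. Summed, the pair ran from 29.1 to 38.6 CPM in Klf4 siRNA, 20.5 to 24.4 in Scramble and 15.4 to 21.8 in Vehicle. Aldh1l1 stood at 23.3 ± 2.41, 11.9 ± 1.49 and 18 ± 2.78 CPM (SD, n = 4), so it was lowest in Scramble, where Aldoc was high.

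**Figure D3:**
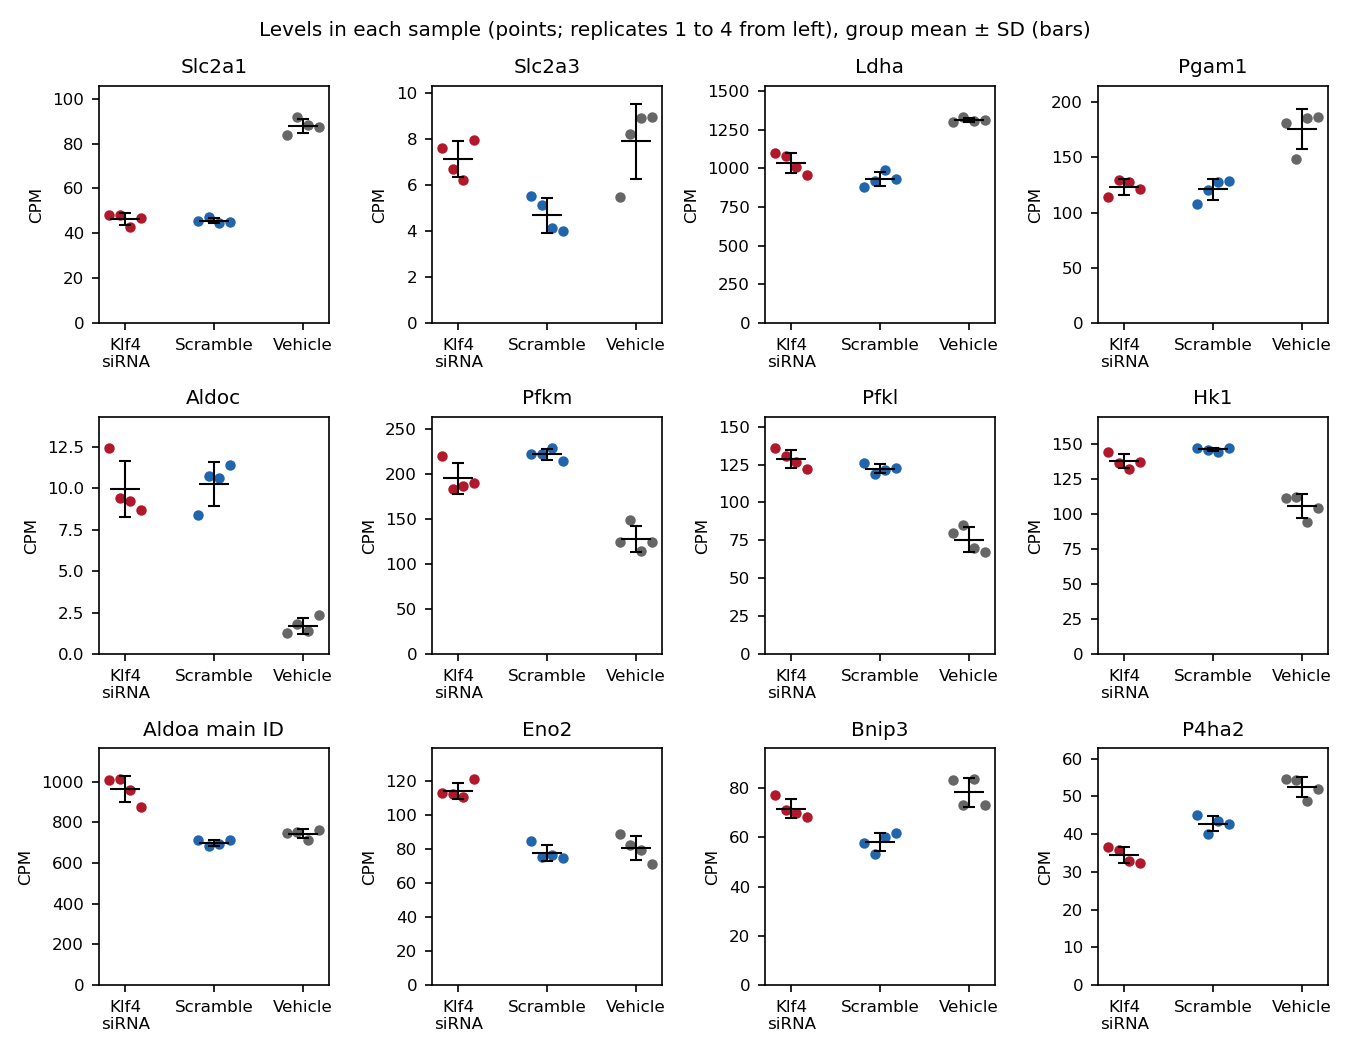
CPM of 12 members in each sample (points), with the group mean and SD (n = 4) as bars, on axes that start at 0. Slc2a1, Ldha and Pgam1 are high in Vehicle, Aldoc, Pfkm, Pfkl and Hk1 are low there, and the main ID of Aldoa and Eno2 are high in Klf4 siRNA alone.

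The enzymes of the lower pathway recover ATP and end in pyruvate. Of the 16 enzyme IDs of the whole pathway, 8 rose and 1 (Pfkm) fell with the Klf4 siRNA against Scramble, with a median log2 fold change of 0.15 and a background of 18.5% up and 17.5% down. The other comparisons gave 6 up and 4 down for Scramble against Vehicle (background 27.3% and 26.6%) and 9 up and 2 down for Klf4 siRNA against Vehicle (background 24.1% and 21.3%). Tpi1, triose phosphate isomerase, was called up in each comparison, from 169.7 ± 8.67 CPM in Vehicle to 211 ± 1.44 in Scramble and 249 ± 10.6 in Klf4 siRNA (SD, n = 4). Gapdh, which oxidises glyceraldehyde 3-phosphate, stood at 1543 ± 63.2, 1268 ± 36.3 and 1395 ± 41.4 CPM (Klf4 siRNA, Scramble, Vehicle; SD, n = 4), and no 2 groups overlapped. It rose with the Klf4 siRNA by a log2 fold change of 0.29 against Scramble (SE 0.04, adjusted p = 6.6e-05) and 0.15 against Vehicle (SE 0.04, adjusted p = 0.0076). Scramble was lower than Vehicle (-0.14, SE 0.04, adjusted p = 0.0064), a call that was lost when total counts alone set the scale (-0.08, adjusted p = 0.069). Near-identical stretches (at least 90% identity over at least 300 aligned bases) also lie in other genes of the annotation for some members. These are Gapdh, Ldha, Pkm, the main Aldoa ID, Eno1, Bnip3, Bnip3l, Pgk1, Pgam1, Tpi1, Gpi1, Ndrg1 and Pfkp, with 177 other genes in the case of Gapdh. The sources used here do not say how reads from such stretches were counted. Exons of other genes, mostly on the other strand, overlap those of Hk1, Gpi1, Pfkm, Pfkp, the main Aldoa ID, Tpi1, Gapdh, Pkm, Slc2a1, Hif1a, Bnip3, Ankrd37, Ndrg1 and Pgm1, and reads from the shared stretches cannot be told apart.

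Phosphoglycerate kinase Pgk1 rose against Scramble (log2 fold change 0.23, SE 0.05, adjusted p = 0.0026), at 264 ± 16.8 CPM with the Klf4 siRNA, 225 ± 8.81 with Scramble and 248 ± 14.5 with Vehicle (SD, n = 4). Its fall in Scramble against Vehicle (-0.14, SE 0.05, adjusted p = 0.031) was no longer called without any of 6 samples. These were Scramble 1, 2 and 3 and Vehicle 1, 2 and 4 (log2 fold change -0.14 to -0.10, adjusted p 0.053 to 0.11). The call was also lost with total counts as the scale (adjusted p 0.17). Pgam1, phosphoglycerate mutase (chromosome 19, 41911923 to 41918660, plus strand), stood at 114, 129.6, 127 and 122 CPM in Klf4 siRNA, 108, 121, 127 and 128 in Scramble and 181, 149, 185 and 187 in Vehicle. Among the enzymes it had the largest fall in both siRNA groups against Vehicle. The siRNA groups overlapped each other but not Vehicle. The log2 fold change against Vehicle was -0.54 in Scramble (SE 0.07, adjusted p = 4.7e-05) and -0.50 in Klf4 siRNA (SE 0.07, adjusted p = 0.00014).

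Enolase has a general form, Eno1, and a neuronal form, Eno2. Eno2 (chromosome 6, 124760053 to 124769673, minus strand) stood at 113, 112, 110.4 and 121 CPM in Klf4 siRNA, 84.7, 75.3, 76.4 and 74.6 in Scramble and 88.5, 82.3, 79.5 and 71.1 in Vehicle. Every Klf4 siRNA sample was above every other sample, and Scramble and Vehicle overlapped. Of the 8 measured markers of the line, Eno2 alone was called up in Klf4 siRNA against Scramble, where 6 others were called down. Its rise, 0.56 on the log2 scale against Scramble (SE 0.05, adjusted p = 6.0e-06) and 0.52 against Vehicle (SE 0.07, adjusted p = 4.4e-05), was the largest among the enzymes against Scramble. Eno1 stood at 960.3 ± 69.2, 789 ± 20.9 and 909 ± 32.5 CPM (Klf4 siRNA, Scramble, Vehicle; SD, n = 4), higher than Scramble with the Klf4 siRNA (log2 fold change 0.29, SE 0.05, adjusted p = 0.00051) and lower in Scramble than in Vehicle (-0.20, SE 0.04, adjusted p = 0.00054). Per length, Eno2 held 12.01% ± 1.16, 10.1% ± 0.575 and 9.17% ± 0.631 of the summed RPKM of both (SD, n = 4). Pkm, pyruvate kinase, rose slightly with the Klf4 siRNA against Scramble (log2 fold change 0.14, SE 0.04, adjusted p = 0.022). The call was lost without Klf4 siRNA 2, Klf4 siRNA 3 or Scramble 2 (log2 fold change 0.10 to 0.14, adjusted p 0.053 to 0.067).

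**Figure D4:**
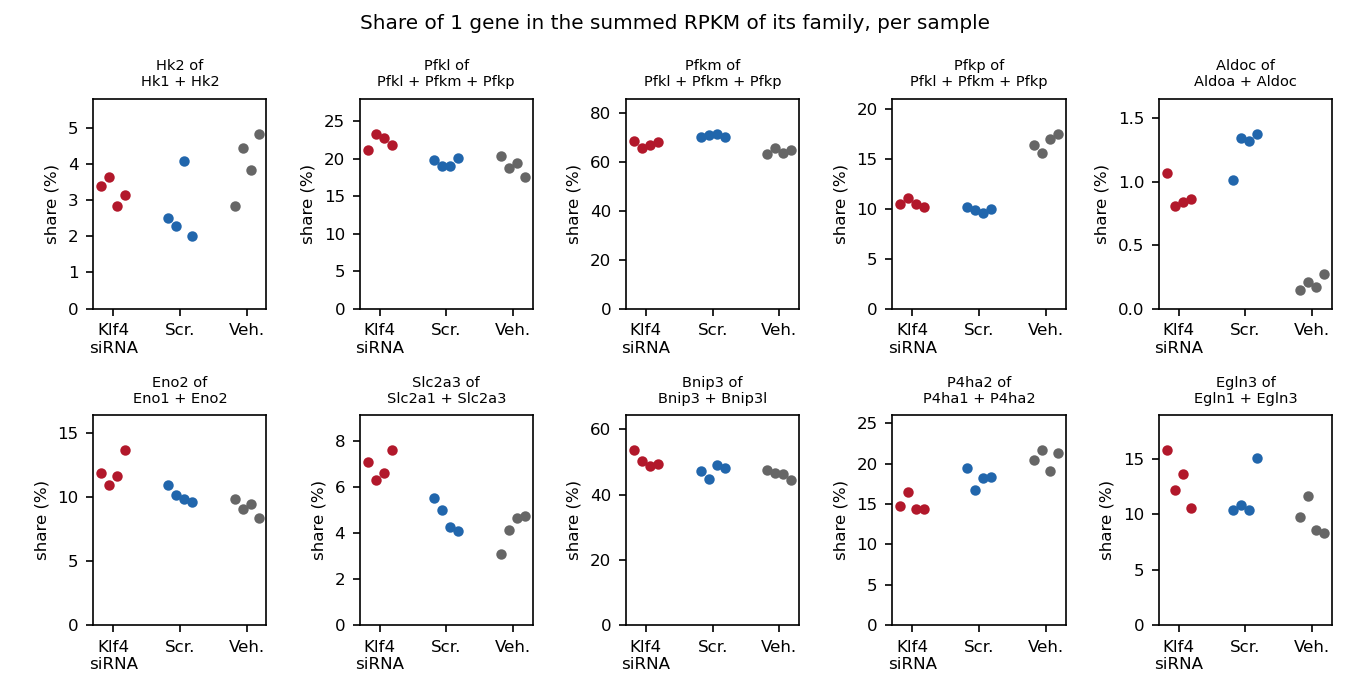
Share (%) of 1 gene in the summed RPKM of its family, with 1 point per sample and axes that start at 0. The share of Pfkp is 15.6% to 17.5% in Vehicle and 9.59% to 11.1% in the siRNA groups, and the share of Aldoc is lowest in Vehicle.

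Pyruvate is passed on by lactate dehydrogenase or held back from mitochondria by pyruvate dehydrogenase kinase. Ldha (chromosome 7, 46841475 to 46855627, plus strand) stood at 1102, 1078, 1009 and 959 CPM in Klf4 siRNA, 882, 916, 988 and 932 in Scramble and 1297, 1332, 1305 and 1310.4 in Vehicle. All Vehicle samples lay above all siRNA samples, and the siRNA groups overlapped. Ldha was lower than Vehicle by a log2 fold change of -0.50 in Scramble (SE 0.04, adjusted p = 2.6e-07) and -0.33 in Klf4 siRNA (SE 0.04, adjusted p = 6.9e-05). Between the siRNA groups it was higher with the Klf4 siRNA (0.16, SE 0.05, adjusted p = 0.019), which was lost without Klf4 siRNA 2 (0.14, adjusted p = 0.059). Slc16a1 (MCT1), a carrier of lactate and pyruvate, moved the other way to Ldha against Vehicle, with 142 ± 6.32, 130.4 ± 7.25 and 108 ± 5.18 CPM (Klf4 siRNA, Scramble, Vehicle; SD, n = 4) and log2 fold changes of 0.40 (SE 0.06, adjusted p = 8.3e-05) and 0.27 (SE 0.05, adjusted p = 0.00072) for Klf4 siRNA and Scramble. Pdk1, which shuts pyruvate dehydrogenase and is a known HIF target, passed in no comparison, at 46.3 ± 2.25, 47.6 ± 3.11 and 45.0 ± 3.90 CPM.

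Of the oxygen-sensing genes, Hif1a (chromosome 12, 73901375 to 73947530, plus strand) stood at 321, 302, 306 and 334 CPM in Klf4 siRNA, 271, 291, 286 and 271 in Scramble and 319.6, 259, 307 and 282 in Vehicle. The Klf4 siRNA samples all lay above Scramble, and Vehicle overlapped both. Hif1a rose with the Klf4 siRNA against Scramble by a log2 fold change of 0.18 (SE 0.04, adjusted p = 0.0066), while the comparisons with Vehicle did not pass (0.12, SE 0.06, adjusted p = 0.14 for Klf4 siRNA and -0.06, SE 0.06, adjusted p = 0.41 for Scramble). For Klf4 siRNA against Vehicle it was called up without Vehicle 1 (0.17, adjusted p = 0.049) and with total counts as the scale (0.17, adjusted p = 0.048). Egln1 (PHD2, the main HIF prolyl hydroxylase; chromosome 8, 124908587 to 124949324, minus strand) stood at 15.4, 17.3, 22.1 and 19.6 CPM in Klf4 siRNA, 24.2, 24.3, 24.4 and 20.9 in Scramble and 19.6, 20.8, 23.7 and 30.1 in Vehicle. Klf4 siRNA sample 3 and Scramble sample 4 overlapped. Egln1 was lower with the Klf4 siRNA than in Scramble (log2 fold change -0.33, SE 0.10, adjusted p = 0.027). The call was lost without Klf4 siRNA 2 or Scramble 1, 2 or 3 (-0.31 to -0.30, adjusted p 0.069 to 0.081). The call was also lost without Klf4 siRNA samples 1 and 4 (-0.24, adjusted p = 0.081) and with all 12 samples in 1 fit (0.0501). Against Vehicle the log2 fold change of Egln1 was -0.33 (SE 0.14) and did not pass (adjusted p = 0.074), but it was called with DESeq2 (0.028), with all 12 samples in 1 fit (0.034) and without Klf4 siRNA 3 or Vehicle 1 (0.032 to 0.033). The authors' deposited table also called it, at an FDR of 0.0487. Egln3 (PHD3), itself induced by HIF, was near 2 CPM and passed in no comparison.

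Among the 7 HIF targets outside metabolism of glucose, 3 rose and 1 fell with the Klf4 siRNA against Scramble, 1 rose and 3 fell in Scramble against Vehicle, and 1 rose and 3 fell in Klf4 siRNA against Vehicle. The background was 18.5% up and 17.5% down, 27.3% and 26.6%, and 24.1% and 21.3% in these comparisons. Bnip3 and Bnip3l encode receptors that mark mitochondria for autophagy. Bnip3 (chromosome 7, 138890836 to 138909519, minus strand) stood at 77.1, 71.3, 70.0 and 68.1 CPM in Klf4 siRNA, 57.7, 53.3, 60.3 and 61.7 in Scramble and 83.1, 73.0, 83.8 and 73.4 in Vehicle. Scramble was below both other groups without overlap, and Klf4 siRNA and Vehicle overlapped. The log2 fold change was 0.30 for Klf4 siRNA against Scramble (SE 0.06, adjusted p = 0.0013), -0.43 for Scramble against Vehicle (SE 0.06, adjusted p = 9.3e-05) and -0.12 for Klf4 siRNA against Vehicle (SE 0.06, adjusted p = 0.15). Without Klf4 siRNA 1 Bnip3 was called down in the last of these (-0.17, adjusted p = 0.049). Bnip3l stood at 119.6 ± 4.83, 110.0 ± 2.52 and 155 ± 9.47 CPM (Klf4 siRNA, Scramble, Vehicle; SD, n = 4) and was lower than Vehicle in both siRNA groups (-0.36, adjusted p = 0.00025, and -0.49, adjusted p = 2.4e-06). Its call between the siRNA groups (0.13, adjusted p = 0.048) was lost without any of 7 of the 8 samples, all but Klf4 siRNA 1 (log2 fold change 0.10 to 0.14, adjusted p 0.065 to 0.13). It was also lost with DESeq2 size factors (0.057), with total counts as the scale (0.057) and with all 12 samples in 1 fit (0.078).

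P4ha1 and P4ha2 encode the catalytic subunits of the enzyme that hydroxylates prolines of collagen. P4ha2 (chromosome 11, 54100095 to 54131665, plus strand) stood at 36.6, 35.8, 32.97 and 32.3 CPM in Klf4 siRNA, 45.0, 40.2, 43.4 and 42.7 in Scramble and 54.7, 54.4, 48.9 and 51.9 in Vehicle. The 3 groups did not overlap, with Klf4 siRNA lowest and Vehicle highest. It was lower by a log2 fold change of -0.31 in Klf4 siRNA than in Scramble (SE 0.06, adjusted p = 0.0016), -0.29 in Scramble than in Vehicle (SE 0.06, adjusted p = 0.00076) and -0.60 in Klf4 siRNA than in Vehicle (SE 0.06, adjusted p = 8.5e-06). P4ha1 passed in no comparison, at 129 ± 8.11, 127 ± 4.12 and 133 ± 6.43 CPM (SD, n = 4). The share of P4ha2 in the summed RPKM of both was 15.0% ± 0.993, 18.2% ± 1.14 and 20.6% ± 1.12 (SD, n = 4). The summed level of the fibroblast and pericyte markers given above had the same order of groups, and its part in P4ha2 was not tested.

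Ankrd37, a small ankyrin repeat protein known as a HIF target, had the reverse order. Ankrd37 (chromosome 8, 45996902 to 46005707, minus strand) stood at 7.06, 6.80, 6.90 and 6.74 CPM in Klf4 siRNA, 5.23, 5.88, 5.76 and 5.95 in Scramble and 4.29, 4.95, 4.42 and 4.26 in Vehicle, and no 2 groups overlapped. The log2 fold change was 0.63 for Klf4 siRNA against Vehicle (SE 0.11, adjusted p = 0.00036) and 0.35 for Scramble against Vehicle (SE 0.11, adjusted p = 0.015). Against Scramble, the rise with the Klf4 siRNA was 0.28 (SE 0.09, adjusted p = 0.035). Its call was lost whichever of the 8 samples was left out (log2 fold change 0.24 to 0.30, adjusted p 0.051 to 0.092). The call was also lost without Klf4 siRNA samples 1 and 4 together (adjusted p 0.10). Exons of Lrp2bp and Ufsp2 overlap Ankrd37 on the other strand, and the library kit does not mark strand, so reads of these genes cannot be told apart there. Ndrg1, a stress-response gene induced by hypoxia (chromosome 15, 66929318 to 66969640, minus strand), stood at 3.45, 2.94, 1.86 and 2.08 CPM in Klf4 siRNA, 2.44, 4.16, 3.78 and 3.65 in Scramble and 3.35, 5.51, 3.95 and 3.82 in Vehicle. The groups overlapped throughout. Ndrg1 was called only for Klf4 siRNA against Vehicle (-0.68, SE 0.21, adjusted p = 0.019). That call was lost without Klf4 siRNA 3, Klf4 siRNA 4 or Vehicle 2 (log2 fold change -0.59 to -0.51, adjusted p 0.059 to 0.069). Without Klf4 siRNA 1 it was also called down in Klf4 siRNA against Scramble (-0.60, adjusted p = 0.042). Vegfa, the angiogenic growth factor, passed in no comparison, at 34.8 ± 4.44, 40.3 ± 2.42 and 40.1 ± 3.29 CPM (SD, n = 4). Without Klf4 siRNA 3 it was called down in Klf4 siRNA against Scramble (log2 fold change -0.27, adjusted p = 0.036). Ero1l, an oxidase of the endoplasmic reticulum that lies outside the rule, stood at 159 ± 6.98, 116 ± 6.38 and 154 ± 10.4 CPM (SD, n = 4), with a log2 fold change of 0.46 for Klf4 siRNA against Scramble (SE 0.05, adjusted p = 2.3e-05) and -0.40 for Scramble against Vehicle (SE 0.06, adjusted p = 4.9e-05).

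Related lists are given by their counts, to be read against the shares of all genes called up and down: 18.5% and 17.5% for Klf4 siRNA against Scramble, 27.3% and 26.6% for Scramble against Vehicle, and 24.1% and 21.3% for Klf4 siRNA against Vehicle. Of 37 tested genes of glycolysis, pyruvate and sugar handling outside the members, 9 rose and 8 fell with the Klf4 siRNA against Scramble, 9 rose and 13 fell in Scramble against Vehicle, and 4 rose and 13 fell in Klf4 siRNA against Vehicle. Fbp1, the gluconeogenic enzyme that opposes phosphofructokinase, stood at 1.21 ± 0.395, 4.49 ± 0.322 and 1.55 ± 0.448 CPM, and Eno3, the muscle enolase, at 5.26 ± 0.775, 12.03 ± 0.594 and 7.47 ± 1.48 (Klf4 siRNA, Scramble, Vehicle; SD, n = 4). Both were lower with the Klf4 siRNA than in Scramble, by log2 fold changes of -1.87 (SE 0.19, adjusted p = 1.1e-05) and -1.19 (SE 0.11, adjusted p = 3.9e-06), against the direction of Eno1 and Eno2. Pdk2, another pyruvate dehydrogenase kinase, and Pdp1, the opposing phosphatase, were both lower in Scramble than in Vehicle (-0.66, SE 0.05, adjusted p = 1.8e-07, and -1.04, SE 0.07, adjusted p = 3.5e-08).

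With the same backgrounds (18.5% and 17.5%, 27.3% and 26.6%, and 24.1% and 21.3%), in the pentose phosphate and glycogen list of 16 tested genes, 5 rose and 3 fell with the Klf4 siRNA against Scramble, 7 rose and 6 fell in Scramble against Vehicle and 5 rose and 2 fell in Klf4 siRNA against Vehicle. Transaldolase Taldo1 stood at 553 ± 42.5, 399 ± 13.5 and 612 ± 24.5 CPM (SD, n = 4), and transketolase Tkt at 226 ± 10.0, 217 ± 6.78 and 159 ± 6.49, so the 2 enzymes of the non-oxidative branch had different orders of the groups. Of 20 tested genes of the HIF pathway, 4 rose and 1 fell with the Klf4 siRNA against Scramble, 3 rose and 9 fell in Scramble against Vehicle and 3 rose and 6 fell in Klf4 siRNA against Vehicle. The gene that fell was Cited2, a competitor of HIF for its coactivators (43.9 ± 9.88, 73.2 ± 7.71 and 89.8 ± 6.75 CPM, SD, n = 4). Hif1an, which encodes the asparaginyl hydroxylase that blocks HIF, was higher than Vehicle in both siRNA groups (log2 fold change 0.71, SE 0.09, adjusted p = 2.2e-05 in Scramble, and 0.67, SE 0.10, adjusted p = 0.00016 in Klf4 siRNA).

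Of the other HIF targets, 22 rose and 7 fell among 49 tested with the Klf4 siRNA against Scramble, with a median log2 fold change of 0.13. In Scramble against Vehicle 9 rose and 21 fell among 48, with a median of -0.22, and in Klf4 siRNA against Vehicle 19 rose and 17 fell among 49, with a median of -0.02. The shares of all genes called up and down were 18.5% and 17.5%, 27.3% and 26.6%, and 24.1% and 21.3%. Individual targets went both ways in the same comparison. Heme oxygenase Hmox1 stood at 234 ± 21.9, 120.0 ± 19.4 and 499 ± 33.4 CPM (SD, n = 4) and was lower in Scramble than in Vehicle by a log2 fold change of -2.05 (SE 0.09, adjusted p = 1.0e-09). Stanniocalcin Stc1, at 51.0 ± 8.42, 128 ± 5.41 and 29.6 ± 1.81 CPM, was higher in Scramble than in Vehicle by 2.11 (SE 0.06, adjusted p = 6.5e-12). Ddit4, an inhibitor of mTOR signalling, stood at 14.9 ± 1.84, 12.2 ± 1.10 and 4.53 ± 0.417 CPM (SD, n = 4) and was higher in Klf4 siRNA than in Vehicle by 1.73 (SE 0.12, adjusted p = 1.7e-07). The cytokine Mif rose with the Klf4 siRNA against Scramble by 1.28 (SE 0.07, adjusted p = 8.1e-08). Many of these genes are also controlled by other stress pathways.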

How the data were processed

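Per the labels' protocols, a Takara SMART-Seq kit, which does not mark strand, was used on Trizol-extracted RNA. The submitters' processing notes name mm10 and the tools STAR, Subread, edgeR, FastQC and STAR-Fusion, without roles or settings. The authors deposited 1 table per pair of groups with raw counts per gene and sample, which were tested here. The tables also held RPKM values that the authors made from those counts, used here for shares within a family because they are per length. The authors' deposited log2 fold changes, p-values and score per gene (called up, down or neither) were read for comparison only: at their FDR under 0.05, the authors' deposited table called 13 members up and 4 down for Klf4 siRNA against Scramble, 8 and 10 for Scramble against Vehicle, and 11 and 9 for Klf4 siRNA against Vehicle. The share of all genes that the authors called is not given here, so these counts have no background beside them.

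In R 4.3.3, edgeR 4.0.16 fitted counts over the whole table (TMM, default filter on low counts, quasi-likelihood test), on the 8 samples of each comparison without a block, with Benjamini-Hochberg adjustment over all genes tested. The standard error is the log2 fold change divided by the square root of F. Levels are CPM with TMM factors over all 12 samples. Depth lay between 25992363 and 39674984 counts. The biological coefficient of variation was 8.01%, 7.30% and 9.01% in the 3 comparisons. Near-identical stretches were sought with blastn 2.17.0 (at least 90% identity over at least 300 aligned bases) in GENCODE M21 transcripts. Promoter windows came from RefSeq (GRCm38.p6).

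The members, lists, alternatives and the rule for named genes were chosen with earlier results of these data known. The rule names every member, gives values in every sample for the 4 largest rises and falls among called members per comparison and for Hif1a, Slc2a1, Pfkfb3 and Ldha, and names up to 4 called genes with the smallest p per other list and comparison. Alternatives were other size factors, no TMM, other filters, DESeq2 1.42.0, a replicate block, all 12 samples in 1 fit and leaving out samples.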

Additional observations from a re-analysis of the deposited data

Results flagged for a closer look

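In 3 of the 99 groups of 4 values of members, 1 sample lay far from the others, where chance alone marks about 1 in 20 groups. Tpi1 in Klf4 siRNA sample 4 stood at 233 CPM, below the 252 to 255 of the other samples of its group. Pgam1 in Vehicle sample 2 stood at 149 CPM, below 181 to 187. Egln1 in Scramble sample 4 stood at 20.9 CPM, below 24.2 to 24.4.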

How the results depend on the processing

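Across 1551 recomputed log2 fold changes of members, 1438 kept their direction and their side of the threshold, 67 lost the call, 20 gained one and 26 changed sign, all of these in values that were not called. Every alternative left 9 of the 14 rises and 2 of the 4 falls called for Klf4 siRNA against Scramble, 8 of 8 and 8 of 10 for Scramble against Vehicle, and 11 of 11 and 5 of 8 for Klf4 siRNA against Vehicle. For Klf4 siRNA against Scramble, leaving out 1 sample gave 9 to 13 members up (9 without Klf4 siRNA 2) and 2 to 5 down (2 without Klf4 siRNA 2, Scramble 2 or Scramble 3). All 12 samples in 1 fit gave 2 down. The cause was not tested. For these fits and for the replicate block the shares of all genes called are not given, so the counts have no background beside them. The replicate block gave 10 up and 4 down, 8 and 9, and 11 and 8 in the 3 comparisons. It ended the calls of Bnip3l (adjusted p 0.10), Ankrd37 (0.085), Pkm (0.065) and Ldha (0.055) for Klf4 siRNA against Scramble, of Pgk1 (0.063) for Scramble against Vehicle and of the second Aldoa ID (0.054) for Klf4 siRNA against Vehicle, and it gave a call for Egln1 in the last (0.011). Same-numbered samples correlated at -0.18 to 0.15, so the numbers were not taken as pairs. Counted in both directions, at most 2 of the 8 samples in any pair of groups matched their own number best.

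With total counts alone the sign changed for Scramble against Vehicle in Eno2 (0.0124), Pkm (0.00355), Egln1 (0.0507) and Pgm1 (0.00686) and for Klf4 siRNA against Vehicle in P4ha1 (0.0113). Without Klf4 siRNA samples 1 and 4 it changed in Slc2a1 (-0.00069) and P4ha1 (-0.0246) against Scramble and in Pdk1 against Vehicle (-0.00515), and with the replicate block in Egln1 for Scramble against Vehicle (0.00994). Leaving out 1 sample spanned 0, for Klf4 siRNA against Scramble, in Pfkp (-0.067 to 0.0156), Aldoc (-0.161 to 0.0186), Pgam1 (-0.0202 to 0.0676), Pdk1 (-0.0668 to 0.00626) and P4ha1 (-0.0137 to 0.0567). It also did so for Scramble against Vehicle in Hk2 (-0.357 to 0.00672), Eno2 (-0.1004 to 0.00393), Egln1 (-0.0857 to 0.135) and Vegfa (-0.0265 to 0.0559), and for Klf4 siRNA against Vehicle in Hk2 (-0.0343 to 0.191) and Pdk1 (-0.00715 to 0.0897). Scaling moved the median of all genes by at most 0.058 on the log2 scale. With total counts, the members called were 15 up and 7 down for Klf4 siRNA against Vehicle and 8 and 8 for Scramble against Vehicle. Pgk1 (adjusted p 0.044), Eno1 (0.036), Pkm (0.028) and Hif1a (0.048) were then called up in Klf4 siRNA against Vehicle. The shares of all genes called on that scale are not given beside these counts. The scarcest members (Pfkfb3, Hk2, Egln3, Ndrg1 and Aldoc in Vehicle) rested on 27 to 178 counts per sample in the groups concerned, which limits what could be called.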
